A study of Homo sapiens with 8 samples.

Results

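The histone genes were followed across 8 expression arrays of A375 cells, a human melanoma line that carries an activating BRAF mutation. Members were all genes whose symbol begins with H1-, H2AC, H2BC, H3C or H4C before a digit, together with H2AX, H2AZ1, H2AZ2, H3-3A and H3-3B. RefSeq lists 98 such symbols, and 54 of them had a probe set that names that gene alone, among 19775 genes measured in this way. Of the other 44, 20 were named only on probe sets that several genes share and 24 on no probe set. The 54 members comprised 41 canonical genes (5 for H1, 8 for H2A, 13 for H2B, 7 for H3 and 8 for H4), 5 replication-independent genes (H1-10, H2AX, H2AZ1, H2AZ2 and H3-3A), 4 genes known from germ cells and 4 pseudogenes or antisense RNAs whose symbols fit the same letters. H3-3B had no probe set of its own.

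Each condition was a single array, so there was no replicate and no test, and every difference below compares 2 arrays. Cells of 5 conditions were cultured for 18 h after siRNA transfection: BRAF siRNA (siBRAF) in glutamine-free medium, nontargeting siRNA (siCont) in glutamine-free medium, siBRAF in normal medium, ATF4 siRNA (siATF4) in normal medium, and siCont in normal medium. The other 3 came from 4 h of drug exposure: siATF4 with 10 uM vemurafenib, an inhibitor of mutant BRAF, siCont with 10 uM vemurafenib, and siCont with the solvent DMSO. All arrays came from 1 cell line, so all groups carry its genotype and have received an siRNA. Array medians were 14.7 to 15.5 on the medium arrays and 36.3 to 36.8 on the drug arrays, and differences were therefore taken only within each of these sets. Values are the deposited linear RMA intensities, differences are of log2(intensity + 1), and "2-fold" means a difference of at least 1 on that scale. The ATF4 probe set read 534 in siATF4 and 1814 in siCont cells of normal medium, and 757 in siATF4 and 4548 in siCont cells given vemurafenib. The siBRAF arrays of the 2 media were close to each other, with 0.1% of all genes at least 2-fold apart, whereas 13% were so between the siCont arrays of the same media. BRAF had no probe set of its own and is not analysed here, so the siBRAF label has no check at its target. Among the melanocyte-lineage markers, the transcription factors SOX10 and MITF lay between 244 and 1117 on all 8 arrays. With siBRAF in normal medium, 4 of 7 melanoma and neural crest markers that passed were at least 2-fold higher, beside 6.7% of all genes. They were MITF (1.15), S100A1 (1.46), TFAP2A (1.73) and S100B (2.17). Of the pigment genes, PMEL had 12.5 to 20.0 on the medium and 23.9 to 26.7 on the drug arrays. TYR had 15.4 to 17.7 and 42.7 to 47.35, and MLANA lay below the median of each array. PTPRC, the leukocyte marker, and EPCAM, the epithelial marker, also lay below the median of each array, whereas KRT5, another epithelial marker, had 18.4 to 22.0 on the medium and 39.3 to 44.6 on the drug arrays, the endothelial marker PECAM1 had 24.7 to 32.2 and 53.0 to 61.2, and the fibroblast collagen COL1A1 had 106 to 123 and 174 to 183. These 3 of 5 markers passed the filter in both sets, none was 2-fold apart in any comparison, and their part in the results was not tested.

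Canonical histone genes lie in clusters, mostly on chromosome 6, and are transcribed mainly while DNA is being copied. Their mRNAs usually end in a stem-loop bound by SLBP instead of a poly(A) tail, but some of the same genes also make polyadenylated transcripts, which have been described in differentiating and non-dividing cells. Replication-independent variants such as H2A.Z and H3.3 are encoded by genes elsewhere whose mRNAs carry poly(A) tails. Standard Affymetrix labelling, which the labels name, starts from an oligo-dT primer, so the intensities of canonical genes refer to whatever RNA that primer reaches, and the share of their total mRNA it represents was not measured. A lower intensity in a bulk sample can mean fewer cells that make the RNA or less RNA in each cell, and these cannot be told apart.

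The promoters of 5 members are shown because their genes carry the main contrasts: H2BC21 and H2AC6 with siBRAF and siATF4, H2BC12 as an H2B gene with a high intensity, H4C8 as the H4 gene that stood out, and H2AZ1 as a replication-independent gene with the opposite direction. Each runs 5′ to 3′ from 250 bases before to 50 bases after the RefSeq start on GRCh38.p14, and capitals mark matches to the searched motifs on either strand.
H2BC21, chr1:149886633-149886932, minus strand: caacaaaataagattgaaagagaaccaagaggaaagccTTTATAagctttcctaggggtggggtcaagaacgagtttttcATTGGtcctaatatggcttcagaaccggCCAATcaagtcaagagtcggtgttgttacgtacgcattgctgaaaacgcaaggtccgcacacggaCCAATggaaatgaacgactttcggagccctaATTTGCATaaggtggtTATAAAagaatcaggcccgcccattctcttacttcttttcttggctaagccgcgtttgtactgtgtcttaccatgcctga
H2AC6, chr6:26123922-26124221, plus strand: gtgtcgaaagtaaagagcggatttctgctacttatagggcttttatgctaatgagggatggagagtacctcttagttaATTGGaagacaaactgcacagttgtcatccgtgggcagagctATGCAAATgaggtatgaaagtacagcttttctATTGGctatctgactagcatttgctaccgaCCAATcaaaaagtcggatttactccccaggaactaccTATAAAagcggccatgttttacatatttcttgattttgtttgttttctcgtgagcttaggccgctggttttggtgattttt
H2BC12, chr6:27146809-27147108, minus strand: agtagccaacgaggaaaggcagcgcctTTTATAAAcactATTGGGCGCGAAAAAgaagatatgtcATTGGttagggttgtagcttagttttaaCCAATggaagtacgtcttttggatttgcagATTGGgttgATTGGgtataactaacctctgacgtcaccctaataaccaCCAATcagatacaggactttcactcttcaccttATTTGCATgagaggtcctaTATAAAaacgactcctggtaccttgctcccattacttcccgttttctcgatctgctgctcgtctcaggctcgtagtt
H4C8, chr6:26285485-26285784, minus strand: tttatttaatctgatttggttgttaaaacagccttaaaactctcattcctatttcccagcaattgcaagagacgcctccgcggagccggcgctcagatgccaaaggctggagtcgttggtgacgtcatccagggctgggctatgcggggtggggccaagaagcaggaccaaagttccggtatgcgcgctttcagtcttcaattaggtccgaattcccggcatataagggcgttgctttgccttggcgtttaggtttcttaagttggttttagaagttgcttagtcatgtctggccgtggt
H2AZ1, chr4:99950226-99950525, minus strand: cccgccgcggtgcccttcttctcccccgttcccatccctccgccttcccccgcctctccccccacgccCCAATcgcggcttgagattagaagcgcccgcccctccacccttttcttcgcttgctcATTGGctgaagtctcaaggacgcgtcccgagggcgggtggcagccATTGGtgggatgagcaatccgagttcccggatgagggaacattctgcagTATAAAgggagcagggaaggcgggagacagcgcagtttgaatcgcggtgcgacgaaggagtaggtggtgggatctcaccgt
The H2AC6 window also covers the divergent start of H2BC4, since the start sites of these neighbours are 246 bases apart. The motifs searched were the octamer ATTTGCAT, which POU2F1 and its relatives bind, CCAAT, which NF-Y binds, TATAAA, the E2F motif TTTNNCGC, and TGATGNAAN, a core of the element bound by ATF4 with C/EBP proteins. Adjacent or overlapping matches, as of CCAAT and E2F in the H2BC12 promoter, appear as 1 capital run.

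A RefSeq promoter of 300 bases was found for 47 of the 54 members. The octamer was present in 9 of 12 H2B and 6 of 8 H2A promoters, in 0 of the 18 canonical H1, H3 and H4 promoters, and in 1.8% of all 27305 promoters. CCAAT was found in 41 of the 47 (35.7% of all promoters), TATAAA in 30 (12%) and the E2F motif in 14 (6.9%). The ATF4 and C/EBP letters were in 0 of the 47 windows, against 3.67% of all promoters. H2BC5 lacks the exact octamer, and H4C8 has none of the 5 motifs in its window.

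With siBRAF in normal medium, a group of canonical histone genes stood well above siCont, led by H2B genes, while H2AZ1 and H2AX stood below it. Of 54 members, 29 had a mean log2 intensity at or above the array median in the medium set. Of these 29, 12 were at least 2-fold higher with siBRAF and 2 at least 2-fold lower, against 6.7% and 7.62% of the 12971 genes that passed the same filter (14.3% in either direction). The median over the 29 was 0.38, beside -0.01 over all genes. Of the 12, 3 genes, H2AC17, H2BC4 and H4C8, lay below the array median in siCont normal cells and pass mainly through the siBRAF arrays. Without any filter the count over all 54 members was again 12 higher and 2 lower, beside 5.01% and 5.22% of 19775 genes.

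H2BC21, an H2B gene of the chromosome 1 cluster, had an intensity of 301 in siBRAF glutamine-free, 66.8 in siCont glutamine-free, 325 in siBRAF normal, 68.4 in siATF4 normal and 24.6 in siCont normal cells. Both siBRAF arrays were highest, siCont in normal medium was lowest, and the other arrays lay between. The log2 difference of siBRAF from siCont was 3.67 (12.8-fold) in normal medium and 2.15 in glutamine-free medium. In normal medium this was the 32nd highest of 12971 genes. H2BC12, an H2B gene in the second group of the chromosome 6 cluster, had 1945 in siBRAF glutamine-free, 453 in siCont glutamine-free, 2074 in siBRAF normal, 934 in siATF4 normal and 506 in siCont normal cells. Here the 2 siCont arrays were lowest and close together in both media, and siATF4 lay between siCont and siBRAF.

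The other H2B genes that passed had the same order. H2BC4 had 79.9 in siBRAF glutamine-free, 8.83 in siCont glutamine-free, 74.6 in siBRAF normal, 16.7 in siATF4 normal and 7.93 in siCont normal cells, and its differences with siBRAF were 3.08 in normal and 3.04 in glutamine-free medium. Only the siBRAF and siATF4 arrays exceeded the array median for this gene, and because the siCont values lie so low, log2(intensity + 16) gave 1.92 and 1.95. H2BC12L, a related gene on chromosome 21, differed by 1.81 in both media. H2BC9, H2BC6 and H2BC5 differed by 1.78, 1.504 and 1.74 in normal medium and by 1.43, 1.76 and 1.61 in glutamine-free medium. Thus each of the 7 H2B genes that passed was at least 2-fold higher with siBRAF in each medium, with medians of 1.81 in both. All of them except H2BC4 and H2BC12 were read by probe sets whose type allows hybridisation to related transcripts. Their values may therefore be mixed and are not 7 independent readings. The remaining 6 H2B members lay below the filter. Their differences, shown as open points in the plot by family, stayed under 2-fold.

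**Figure D1:**
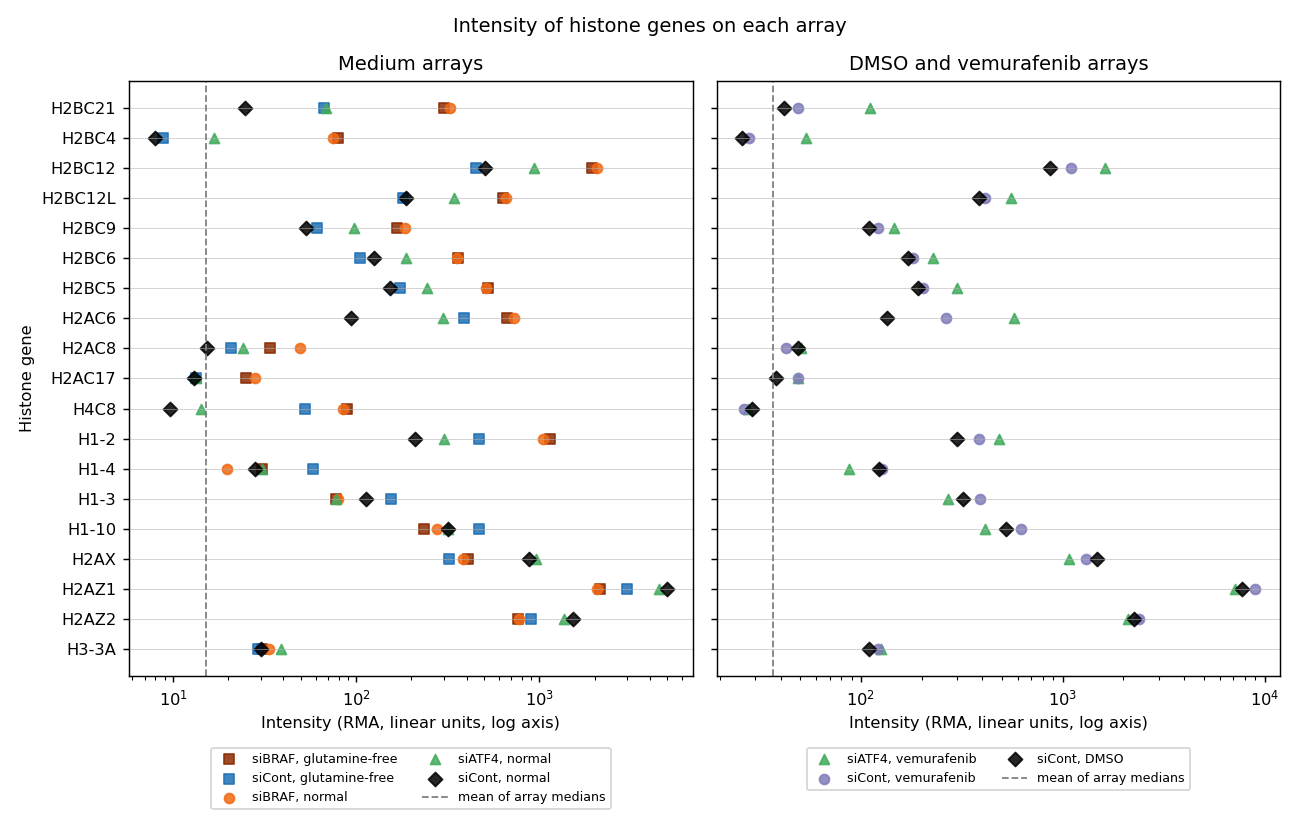
Intensity (linear RMA units, log axis) of 19 histone genes on each array, with the 5 medium arrays at left and the 3 drug arrays at right; each symbol is 1 array and the dashed line is the mean of the array medians. For the 7 H2B genes at the top the siBRAF symbols lie at the right and siCont in normal medium at or near the left, whereas for H2AZ1, at 2066 in siBRAF and 4978 in siCont normal cells, the order is the opposite.

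Among the H2A genes, H2AC6 showed the largest difference and a different course between media. Its intensity was 667 in siBRAF glutamine-free, 385 in siCont glutamine-free, 728 in siBRAF normal, 297 in siATF4 normal and 93.8 in siCont normal cells. Only siCont in normal medium was low. The difference of siBRAF from siCont was therefore 2.94 in normal medium but 0.79 in glutamine-free medium. H2BC4, which starts back to back with H2AC6, was at least 2-fold higher with siBRAF in both media, with siCont below the array median in each. H2AC8 differed by 1.63 and 0.68, and H2AC17 by 1.05 and 0.87, in normal and glutamine-free medium. With log2(intensity + 16) the H2AC17 difference in normal medium was 0.60, under 2-fold. In all, 3 of 6 H2A genes that passed were at least 2-fold higher with siBRAF in normal medium, beside 6.7% of all genes. In glutamine-free medium it was 0 of 6, beside 12.6%, a share at which 6 genes are too few to tell apart. The 3 include H2AC17, which passes mainly through the siBRAF arrays.

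H4C8, an H4 gene, had an intensity of 89.1 in siBRAF glutamine-free, 52.2 in siCont glutamine-free, 84.8 in siBRAF normal, 14.1 in siATF4 normal and 9.58 in siCont normal cells. H4C8 thus stood 3.02 above siCont with siBRAF in normal medium and 0.76 above it without glutamine. Its second probe set gave 3.96 and 0.92, and log2(intensity + 16) on the first gave 1.98 and 0.62. On the probe sets used, H4C8 was at least 2-fold higher with siBRAF in normal medium, beside 6.7% of all genes. The other 6 H3 and H4 genes that passed lay between -0.59 and 0.87. In glutamine-free medium 0 of the 7 were 2-fold apart in either direction, beside 23.5% of all genes. With so few genes, these counts do not separate the families. H3C6, an H3 gene, depended on the probe set. The one used gave 0.87 in normal and 0.54 in glutamine-free medium, and the other gave 2.80 (39.5 in siBRAF against 4.83 in siCont) and 1.64 (38.3 against 11.6). Averaging both probe sets gave 1.83 with glutamine and 1.09 without, over 2-fold each time.

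The linker histone genes did not share a direction. H1-2 had 1137 in siBRAF glutamine-free, 468 in siCont glutamine-free, 1041 in siBRAF normal, 300 in siATF4 normal and 209 in siCont normal cells, with differences of 2.31 and 1.28 with siBRAF in normal and glutamine-free medium. H1-3 and H1-4 had negative differences, -0.52 and -0.49 in normal medium and -0.97 and -0.90 in glutamine-free medium, all under 2-fold. H1-2 is thus the member outside H2B that was at least 2-fold higher with siBRAF in both media.

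**Figure D2:**
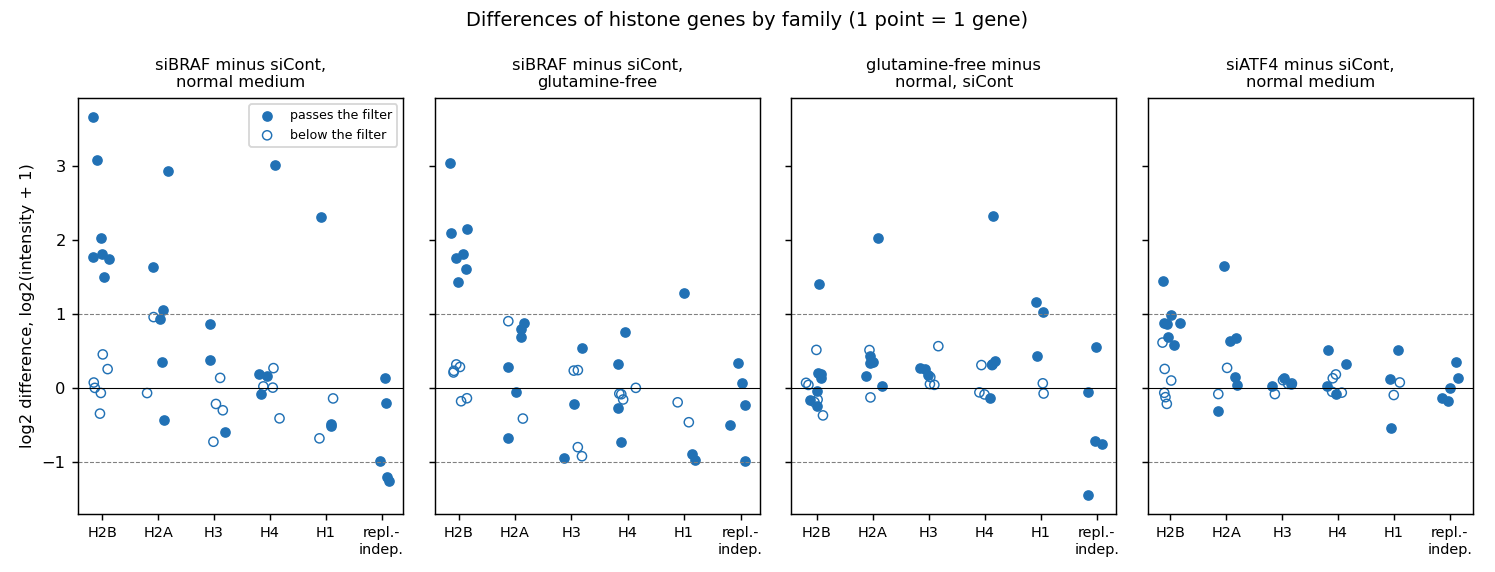
Log2 difference for each measured histone gene by family in 4 comparisons; 1 point is 1 gene, filled points pass the filter, open points lie below it, and dashed lines mark 2-fold. The 7 filled H2B points lie above 1 in both siBRAF comparisons and above 0 with siATF4, while H3 and H4 points, on the probe set used, stay under 2-fold except H4C8.

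Among the replication-independent genes, H2AZ1 and H2AX were at least 2-fold lower with siBRAF in normal medium. H2AZ1, which encodes H2A.Z, a variant placed at promoters, had 2134 in siBRAF glutamine-free, 3022 in siCont glutamine-free, 2066 in siBRAF normal, 4511 in siATF4 normal and 4978 in siCont normal cells. Both siBRAF arrays were lowest, with differences of -1.27 in normal and -0.50 in glutamine-free medium. H2AX, whose protein is phosphorylated at DNA breaks, had 406 in siBRAF glutamine-free, 321 in siCont glutamine-free, 381 in siBRAF normal, 963 in siATF4 normal and 881 in siCont normal cells. It differed by -1.21 with siBRAF in normal medium and by 0.34 in glutamine-free medium, and the mean of its 4 probe sets gave -0.74 in normal medium. H2AZ2, the second H2A.Z gene, differed by -0.99 in normal and -0.24 in glutamine-free medium on the probe set used. Its other 3 probe sets gave -0.43 to -0.19 in normal medium and 0.14 to 0.86 in glutamine-free medium, and the mean of all 4 was -0.48 and 0.36, so the direction in glutamine-free medium depended on the probe set. H1-10 differed by -0.21 and -0.99, and H3-3A by 0.13 and 0.06, in normal and glutamine-free medium. The H3-3A probe set read 30.3 in siCont normal cells, where the array median was 15.1. Shared probe sets that carry the H3-3A symbol also carry that of H3-3B, so their values cannot be assigned to either gene. One that also names H3P6 (5180 in siCont normal cells) differed by 0.27 and 0.65. Another, which also names MIR4738 (3649), differed by -0.59 and -1.46.

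The siBRAF comparisons in the 2 media have no array in common. Of the 29 members, 8 were at least 2-fold higher in both and 0 were at least 2-fold lower in both, beside 5.19% and 4.3% of all genes. In glutamine-free medium alone, 8 members were higher and 0 lower, beside 12.6% and 10.8% of all genes (23.5% in either direction). H2BC4 is among the 8 in each case and passes mainly through the siBRAF arrays.

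On chromosome 6 the genes at least 2-fold higher with siBRAF in normal medium were spread along the clusters: they were H1-2, H2BC4, H2AC6, H2BC5, H2BC6, H2AC8, H2BC9, H4C8, H2BC12 and H2AC17, with genes under 2-fold between them. Among the 41 canonical genes, 5 have a RefSeq locus longer than 1000 bases, which the others do not reach: H2BC21 (2224 bases), H2BC4 (10757), H2BC5 (13229), H2BC12 (8566) and H3C6 (3296). The first 4 were at least 2-fold higher with siBRAF in both media, and H3C6 differed by 0.87 and 0.54 on the probe set used and by 2.80 and 1.64 on its other one. Of the 36 shorter genes, of which 18 passed, 8 were at least 2-fold higher in normal medium and 4 in glutamine-free medium. Among all genes these shares were 6.7% and 12.6%. H2BC4 among the long loci, and H2AC17 and H4C8 among the short ones, lay below the array median in siCont normal cells. They pass mainly through the siBRAF arrays. This division by length was chosen after the values were seen. By octamer, 5 of 5 H2B genes that passed with it and 1 of 1 without were at least 2-fold higher with siBRAF in normal medium. Among H2A genes that passed, 3 of 5 with it and 0 of 1 without were higher, beside 6.7% of all genes. The genes with the octamer include H2BC4 and H2AC17, which pass mainly through the siBRAF arrays. With 1 gene without the octamer in each family, the groups could not be compared.

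**Figure D3:**
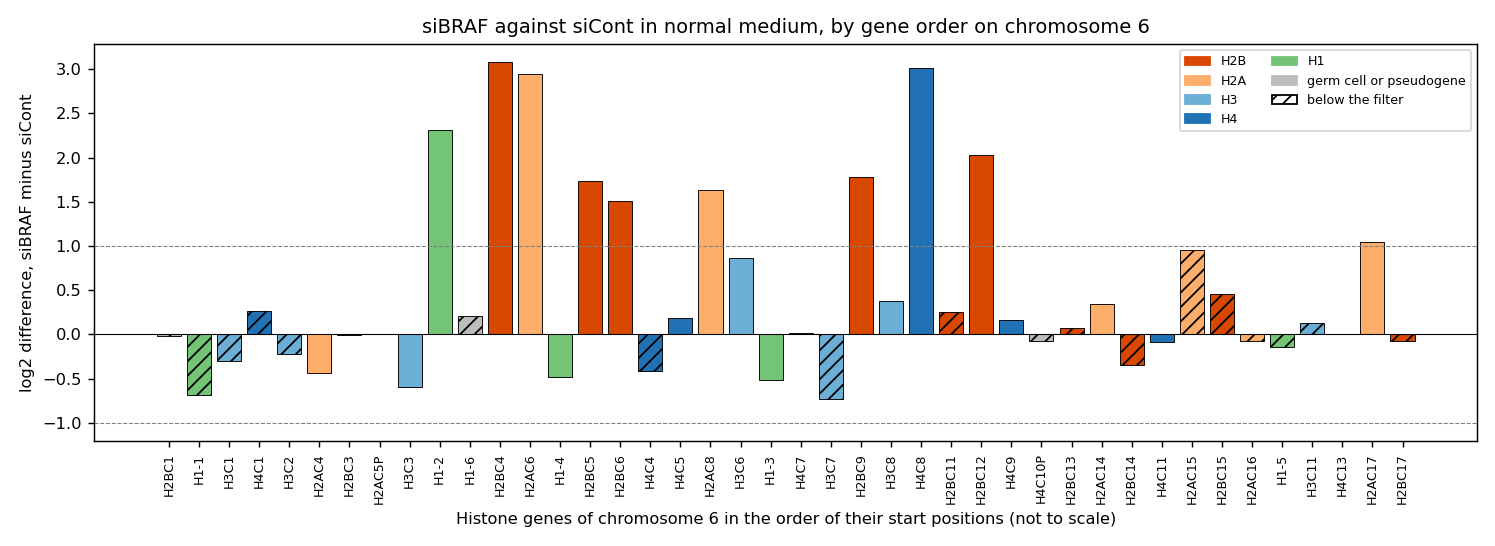
Log2 difference of siBRAF from siCont in normal medium for the histone genes of chromosome 6, in the order of their start positions and not to scale; colour gives the family, hatching marks genes below the filter, and dashed lines mark 2-fold. Bars above 2-fold, from H1-2 to H2AC17, are interspersed with bars near 0.

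Glutamine-free medium was compared with normal medium in siCont and in siBRAF cells. In siCont cells 5 members were at least 2-fold higher and 2 at least 2-fold lower without glutamine, beside 5.62% and 7.36% of all genes (13% in either direction). The 5 were H4C8 (52.2 against 9.58, a difference of 2.33), H2AC6 (385 against 93.8, 2.03), H2BC21 (66.8 against 24.6, 1.41), H1-2 (468 against 209, 1.16) and H1-4 (58.0 against 27.9, 1.03). H4C8 lay below the array median in siCont normal cells, and H1-4 gave 0.75 with log2(intensity + 16), under 2-fold. H4C8, H2AC6, H2BC21 and H1-2 were also among the genes higher with siBRAF, but that comparison uses the same siCont normal array, so the values are given side by side only. The other 6 H2B genes that passed had differences from -0.25 to 0.21. The 2 lower members were H2AX, at 321 against 881 (-1.45, or -0.85 as the mean of its probe sets), and the H1 pseudogene H1-9P, at 21.4 against 53.0 (-1.27, or -0.88 with log2(intensity + 16)). H2AZ1 and H2AZ2 had differences of -0.72 and -0.76.

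In siBRAF cells 0 members were at least 2-fold apart between the media in either direction, beside 0.0463% higher and 0.054% lower among all genes (0.1% in either direction). No member was therefore 2-fold apart in both siRNA settings, which share no array, beside 0.0385% of all genes higher and 0.00771% lower in both. The differences of the 29 members ran from -0.52 for H2AC8 to 0.62 for H1-4. The glutamine response in siBRAF minus that in siCont cells was at least 2-fold lower for 4 members, H4C8 (-2.26), H2AC6 (-2.15), H2BC21 (-1.52) and H1-2 (-1.03), and at least 2-fold higher for H2AX (1.54) and H1-9P (1.26), beside 5.6% and 7.82% of all genes (13.4% in either direction). Since the siBRAF arrays of the 2 media were close, these values largely restate the siCont differences above with the sign turned.

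With siATF4 the H2B genes that passed lay above siCont, in normal medium by less than with siBRAF. H2BC21 and H2AC6 passed 2-fold in both settings. In normal medium the siATF4 and siBRAF comparisons use the same siCont array, so their values are given side by side only. In normal medium H2BC21 and H2AC6 were 2 of 29 members, with 0 lower, beside 0.409% of all genes higher and 0.378% lower (0.786% in either direction). Under vemurafenib they were 2 of the 31 members that passed on the drug arrays, with 0 lower, beside 0.163% of all genes higher and 0.729% lower (0.892% in either direction). The 2 siATF4 comparisons share no array, and of 12365 genes that passed in both sets 0.0566% were at least 2-fold higher and 0.089% at least 2-fold lower in both.

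H2BC21 had 111 in siATF4 vemurafenib, 49.1 in siCont vemurafenib and 41.7 in siCont DMSO cells. Its siATF4 difference was 1.44 in normal medium and 1.16 under vemurafenib, the 15th highest of 12971 and the 8th highest of 12899 genes. H2AC6 had 574 in siATF4 vemurafenib, 265 in siCont vemurafenib and 134 in siCont DMSO cells, and was high in both knockdown settings. Its siATF4 difference was 1.65 in normal medium and 1.11 under vemurafenib, the 9th and the 10th highest. H2BC4 had 53.5 in siATF4 vemurafenib, 27.9 in siCont vemurafenib and 25.8 in siCont DMSO cells. Its differences of 0.99 and 0.91 were just under 2-fold, and it lay below the filter on the drug arrays.

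The 7 H2B genes that passed had siATF4 differences from 0.58 to 1.44 in normal medium, with a median of 0.88, and the 6 that passed on the drug arrays from 0.26 to 1.16, with a median of 0.49. Over all genes the medians were 0.03 in both. Here too, all these H2B genes except H2BC4 and H2BC12 were read by probe sets that may mix related transcripts. H2BC12 had 1628 in siATF4 vemurafenib, 1096 in siCont vemurafenib and 866 in siCont DMSO cells, a difference of 0.57 with siATF4. H2BC12L, H2BC5, H2BC6 and H2BC9 differed by 0.44, 0.55, 0.33 and 0.26 there. On the probe sets used, H3 and H4 members that passed ran from -0.09 to 0.51 in normal medium, where H4C8 was the highest, and from -0.30 to 0.06 under vemurafenib. H4C8 and H3C6 did not pass on the drug arrays. Their other probe sets gave 1.365 for H4C8 (14.1 against 4.87) and 0.82 for H3C6 (9.28 against 4.83) in normal medium. Under vemurafenib these gave 0.81 and 0.74, and all these intensities lay below the array medians. The replication-independent genes were within 0.34 of siCont in normal medium, and under vemurafenib H1-10 (-0.60), H2AZ1 (-0.32), H2AX (-0.29) and H2AZ2 (-0.18, or -0.49 as the mean of its probe sets) lay below siCont while H3-3A differed by 0.05.

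Vemurafenib for 4 h in siCont cells left 0 of 31 members at least 2-fold apart from DMSO, beside 0.83% of all genes higher and 1.81% lower (2.64% in either direction). H2AC6 came nearest, at 265 with vemurafenib against 134 with DMSO, a difference of 0.98. The H2B genes that passed had differences from 0.08 to 0.34, and H2AX and H2AZ1 differed by -0.18 and 0.20. The drug exposure of 4 h and the knockdown culture of 18 h differ in length and in array set, so their sizes were not compared.

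Genes of DNA synthesis differed in some of the same comparisons. Of 19 such genes, siBRAF in normal medium had 18 below siCont by 2-fold or more (median -2.17), beside 7.62% of all genes. In glutamine-free medium siBRAF had 8 below and 1 above by that amount (median -0.73), beside 10.8% and 12.6% of all genes. In siCont cells 11 were at least 2-fold lower without glutamine (median -1.09), beside 7.36%. With siATF4 in normal medium 0 of 19 were 2-fold apart (median -0.16), beside 0.786% of all genes. Under vemurafenib 1 was lower with siATF4 (median -0.39), beside 0.729%. Vemurafenib against DMSO gave 0 of 19 (median -0.0011), beside 2.64%. By the same 2-fold measure, 7 of 7 H2B genes that passed were higher with siBRAF in each medium. All genes gave 6.7% in normal and 12.6% in glutamine-free medium. The 7 include H2BC4, which passes mainly through the siBRAF arrays, and the 6 H2B members below the filter are not counted. All of the 7 except H2BC4 and H2BC12 were read by probe sets that may mix related transcripts. In siCont cells without glutamine 1 of 7 was higher (median 0.14, beside 5.62%), and with siATF4 in normal medium 1 of 7 (median 0.88, beside 0.409%). By sign, with siATF4 in normal medium 7 of 7 H2B genes lay above 0 and 17 of 19 DNA synthesis genes below 0. Of all 12971 genes in that comparison, 7186 lay above 0 and 5765 below 0. The share of cells in S phase was not measured, and its part in these differences was not tested.

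**Figure D4:**
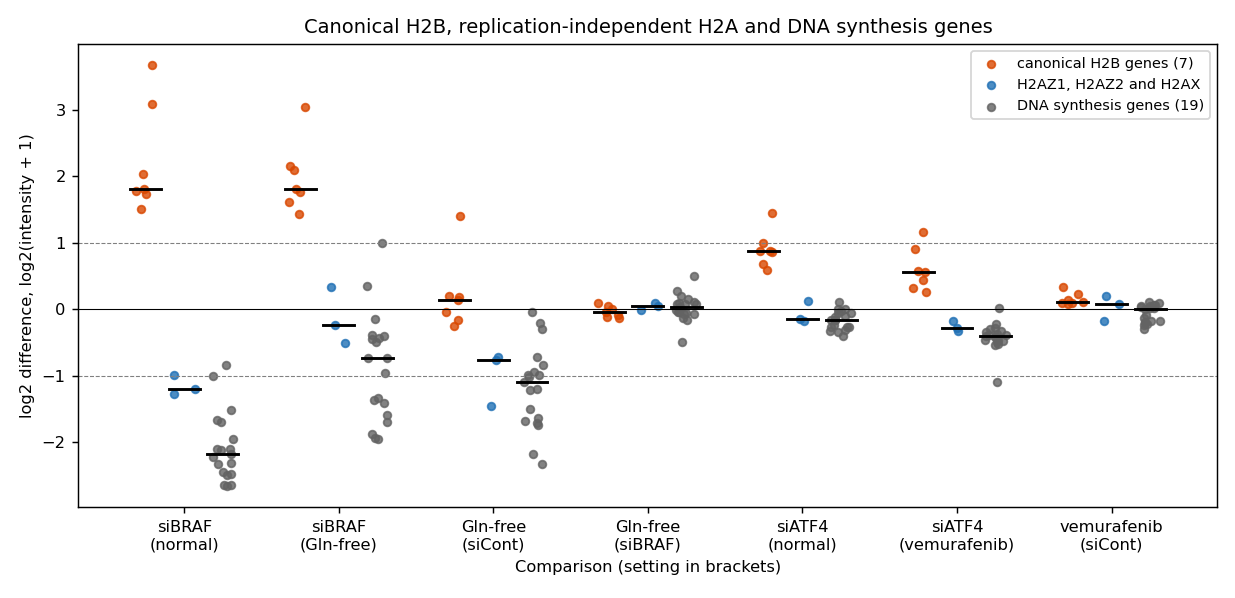
Log2 differences of the 7 canonical H2B genes that passed on the medium arrays, of H2AZ1, H2AZ2 and H2AX, and of 19 DNA synthesis genes in 7 comparisons, each named by the siRNA, medium or drug that differs, with the setting in brackets; points are genes and bars are medians. With siBRAF in normal medium the H2B median is 1.81 and the DNA synthesis median -2.17, and with siATF4 in normal medium they are 0.88 and -0.16.

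Of 17 genes for histone transcription and mRNA processing, 2 were at least 2-fold lower and 0 higher with siBRAF in normal medium, a share near the 7.62% of all genes that were lower: CCNE2, a cyclin E gene (46.4 against 233, -2.30), and its kinase CDK2 (143 against 488, -1.77). SLBP, the stem-loop binding protein, differed by -0.77 there, and NPAT, the coactivator of canonical histone genes, by -0.54. In glutamine-free medium 1 of the 17 was at least 2-fold higher and 2 lower with siBRAF, beside 12.6% and 10.8% of all genes. CCNE2 was the higher gene (1.06), CDK2 differed by -1.76, SLBP by 0.32 and NPAT by -0.37. In siCont cells without glutamine the 2 lower genes, beside 7.36% of all genes, were CCNE2 (24.4 against 233, -3.20) and SLBP (402 against 878, -1.13). With siATF4 0 of 17 were 2-fold apart in normal medium or under vemurafenib. Of 25 histone chaperones, 6 were at least 2-fold lower and 0 higher with siBRAF in normal medium, beside the same 7.62%, led by HJURP, the CENP-A chaperone (-2.70), ASF1B, an H3-H4 chaperone (-2.38), ANP32E, which removes H2A.Z (-1.77), and CHAF1A, a subunit of the replication-coupled assembly factor CAF-1 (-1.71). In glutamine-free medium 2 of the 25 chaperones were at least 2-fold lower and 1 higher with siBRAF, beside 10.8% and 12.6% of all genes. Of 4 histone genes outside the symbols used here that passed, the centromeric variant CENPA was 2-fold lower with siBRAF in normal medium (40.7 against 132, -1.68), and H2AJ differed by 0.78. In glutamine-free medium CENPA differed by -0.77 and H2AJ by 0.71.

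The 20 members that passed in neither set, 17 of them canonical, had intensities of 2.58 to 16 on the medium arrays and 5.50 to 38.5 on the drug arrays. Their largest difference in any comparison was 0.96 in size. Of the 54 members, 16 were measured by probe sets whose type allows hybridisation to related transcripts, so values of near-identical paralogs may be mixed, and levels were not compared between genes. H2BC21, H2AC6, H2BC5, H2BC6, H2BC9, H2BC12L and H4C8 are among them, and H2BC4, H2BC12 and H1-2 are not. The replication-independent genes H2AX, H2AZ1, H2AZ2, H1-10 and H3-3A are among them too, and H2AX has no probe set of another type. Leaving such probe sets out gave 7 members at least 2-fold apart with siBRAF in normal medium in place of 14, 3 in place of 8 in glutamine-free medium, and with siATF4 1 in place of 2 in normal medium and 0 in place of 2 under vemurafenib.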

How the data were processed

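RNA from A375 cells was hybridised to 8 arrays of 54675 probe sets, 1 per condition. Per the submitters' processing notes the authors used RMA (background correction, normalization and probe set summary). The deposited values are linear intensities, and which arrays were normalized together is not given in the sources used here. A gene was taken from probe sets with exactly 1 symbol in the platform annotation (41091 probe sets), using the one with the highest mean log2 intensity. A gene passed if its mean log2(intensity + 1) over the arrays of its set reached the mean array median. Differences of at least 2-fold were counted; with 1 array per group no p-value was computed, and the number of arrays limits the precision. Members named were those at least 2-fold apart somewhere and all replication-independent ones, with at most 4 genes per other list and comparison. The members, lists and comparisons were chosen with earlier results of these data known. Promoters are from RefSeq (GRCh38.p14). Alternatives were the added constant, the filter, the choice of probe set and quantile normalization. The counting was tested on simulated arrays. Python 3.11.15, numpy 2.4.6, pandas 2.3.3 and matplotlib 3.10.9 were used.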

Additional observations from a re-analysis of the deposited data

Results flagged for a closer look

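Probe sets that carry symbols of several histone genes were left out of the comparisons above, and 8 of them stood far above siCont with siBRAF in normal medium. Symbols on such a probe set cannot be told apart, so they are given by family. A probe set shared by 10 H3 symbols differed by 3.29 (167 in siBRAF against 16.3 in siCont normal cells). Probe sets shared by 2 H2B symbols differed by 3.63 and 2.10, and one shared by 5 H2B symbols by 3.10. Probe sets shared by 2 H2A symbols differed by 2.87 (4233 in siBRAF against 577 in siCont normal cells) and 2.89, and one shared by 6 H2A symbols by 2.67. A probe set with 11 H2A and H3 symbols differed by 2.55. Causes were not tested.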

How the results depend on the processing

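Of 33 member differences of at least 2-fold, 0 changed sign under the alternatives run. Among the 70 differences of the 10 genes with several probe sets, averaging turned the sign of 11, all under 2-fold, including H2AZ2 with siBRAF in glutamine-free medium (0.36 in place of -0.24). Of the 33, 33 stayed at least 2-fold under quantile normalization, 31 when a gene's probe sets were averaged and 29 with log2(intensity + 16). Averaging can change only the 10 genes with several probe sets, and the 2 differences it took under 2-fold were both of H2AX. Without probe sets of the _s_ and _x_ types, 14 of 14 that could be measured stayed at least 2-fold. Only H2AZ1 and H4C8 were then read by another probe set. The other genes kept the same probe set, so their values could not change. Counts of members at least 2-fold apart moved as follows. Without _s_ and _x_ probe sets they were 7 in place of 14 for siBRAF in normal medium, 3 in place of 8 for siBRAF in glutamine-free medium, 1 in place of 2 for siATF4 in normal medium and 0 in place of 2 for siATF4 under vemurafenib, since fewer genes are measured. For siATF4 under vemurafenib the count was 1 with log2(intensity + 16) and 1 with the 75th percentile filter. For glutamine-free medium in siCont cells it was 4 in place of 7 with the 75th percentile filter. For vemurafenib against DMSO it was 1 in place of 0 with quantile normalization, where H2AC6 reached 1.005. No paired analysis was possible because each condition has 1 array and the result comes from no test. No replicate could be left out for the same reason.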

Other observations

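The 28 shared probe sets with a histone symbol were not all higher with siBRAF. Of the 23 that passed on the medium arrays, 12 were at least 2-fold higher and 1 at least 2-fold lower with siBRAF in normal medium, beside 6.35% and 6.83% of all probe sets that passed. In glutamine-free medium 8 were higher and 4 lower, beside 11.9% and 10.8%. Of these 4, 3 carry replication-independent H3 symbols, with differences of -1.22, -1.36 and -1.46. The one lower in normal medium, also lower in glutamine-free medium, carries 14 H4 symbols and had an intensity of 602 in siBRAF glutamine-free, 3371 in siCont glutamine-free, 730 in siBRAF normal, 1834 in siATF4 normal and 2040 in siCont normal cells. Its differences with siBRAF were -1.48 in normal and -2.48 in glutamine-free medium. Another probe set annotated with 14 H4 symbols differed by 1.73 with siBRAF in normal medium and 0.42 in glutamine-free medium, and a further one by -0.03 and -0.20. With siATF4 in normal medium 4 of the 23 were at least 2-fold higher and 0 lower, beside 0.419% and 0.302%. Under vemurafenib 2 of the 20 that passed on the drug arrays were higher with siATF4 and 0 lower, beside 0.15% and 0.633%.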
